A study of Mus musculus with 16 samples.

Results

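Livers of 7-day-old mice that lack TRAF2, caspase-8 and IKKβ in their parenchymal cells differed from wild-type livers in few genes. Of 18820 genes, 5 rose and 2 fell. The interferon- and TNF-inducible gene Ubd rose 21.8-fold, the chemokine gene Cxcl10 6.31-fold and the Wnt inhibitor gene Wif1 4.01-fold. The comparison rests on 8 of the 16 arrays of the series: the 4 titled as TRAF2/Casp-8/IKKβLPC -/- null (called IKKβ triple KO here) and the 4 titled wild-type (WT), chosen by those titles alone. The labels give every array its own mouse, so n = 4 animals per group.

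All animals were males of a mixed C57/BL6 - SV129Ola background, and RNA came from whole liver. IKKβ triple KO mice carried loxP-flanked alleles of Traf2, Caspase-8 and Ikkβ together with the alfp-Cre transgene, which deletes them in liver parenchymal cells (LPC), that is hepatocytes and bile duct cells. WT mice were littermates with the loxP-flanked alleles but without Cre, so the transgene itself was carried by the knockout group only. Blood, endothelial and stellate cells of the knockout livers keep all 3 genes, and in whole tissue fewer cells of a type and less RNA per cell cannot be told apart. The other groups of the series were mice lacking TRAF2 and caspase-8 in the same cells (TRAF2/Casp8 KO) and the same genotype with a constitutive Ripk3 deletion on top (RIPK3 triple KO), with 4 arrays each. The comparison asks what response to the loss of TRAF2 and caspase-8 is left when parenchymal IKKβ is missing too.

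TRAF2 is an adaptor that binds to TNF receptors, brings in the ubiquitin ligases cIAP1 and cIAP2 and so links the receptor to NF-κB. It also holds the kinase NIK in check, and cells without TRAF2 stabilise NIK, which processes the p100 protein in the non-canonical NF-κB pathway. Caspase-8 starts death-receptor apoptosis and cleaves the kinases that would otherwise cause necroptosis, a lytic form of cell death. IKKβ is the main kinase of the canonical pathway: it phosphorylates the inhibitor IκBα, whose breakdown frees NF-κB dimers to enter the nucleus.

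Signals are log2 values, so a difference of 1 is a 2-fold change, and each is given with its SE unless another error is named. Every adjusted p is from limma, fitted over all 16 arrays and adjusted by Benjamini-Hochberg over 35556 probe sets, and a gene passed at an adjusted p under 0.05. The hepatocyte markers Alb, Ttr, Apoa1, Hnf4a and Asgr1 lay between the 97.1 and 100 percentiles of genes by mean signal, and Alb read 13.42 ± 0.04 (SD, n = 4) in WT and 13.40 ± 0.04 in IKKβ triple KO. Of the pancreas markers, Prss2 read 2.66 to 3.08 and Cela1 4.79 to 5.29 over the 8 arrays, and of the fat markers, Adipoq read 2.60 to 2.99 and Plin1 3.69 to 4.11. Correlations between arrays were 0.981 to 0.990 within WT, 0.985 to 0.990 within IKKβ triple KO and 0.981 to 0.990 between them. WT replicate 1 stood apart: it had the lowest array weight (0.461) and the highest signals of myeloid markers, such as 10.3 for Mpo against 8.50 to 8.94 in the other WT arrays and 9.39 for Adgre1 against 8.34 to 8.41. The array names hold a letter and a number, read here as row and column, and whether these mark processing batches is not stated. Both groups have column 5. WT has rows A to D and the knockout rows E to H, so row and genotype cannot be told apart.

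The promoters of 6 genes are shown for whether they carry NF-κB- or interferon-type sequences near their start. Windows of 300 bases around the gene start come from RefSeq on GRCm38.p6. A κB-type sequence was searched as GGGNNTTTCC or its shorter form GGGNNTTCC, and the core of the interferon-stimulated response element as GAAANNGAAA, each on both strands. The short form can lie inside the long form. Of 32851 such windows, 7.0% held either κB-type sequence (1.63% the long and 5.82% the short form), and 3.44% held GAAANNGAAA. Capitals mark matches, and each promoter is written 5′ to 3′ on the strand of its gene. Ubd, Cxcl10 and Wif1 are the largest rises against WT. Tnfaip3 missed the threshold against WT, Ltb was low beside TRAF2/Casp8 KO, and Ifit1 was high beside it.
Ubd (chr17:37193642-37193941, plus strand): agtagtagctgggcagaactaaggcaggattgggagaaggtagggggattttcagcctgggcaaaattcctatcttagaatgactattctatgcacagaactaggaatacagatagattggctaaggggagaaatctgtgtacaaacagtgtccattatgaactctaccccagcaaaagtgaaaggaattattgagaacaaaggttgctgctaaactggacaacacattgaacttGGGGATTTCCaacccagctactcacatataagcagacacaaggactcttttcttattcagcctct
Cxcl10 (chr5:92348840-92349139, minus strand): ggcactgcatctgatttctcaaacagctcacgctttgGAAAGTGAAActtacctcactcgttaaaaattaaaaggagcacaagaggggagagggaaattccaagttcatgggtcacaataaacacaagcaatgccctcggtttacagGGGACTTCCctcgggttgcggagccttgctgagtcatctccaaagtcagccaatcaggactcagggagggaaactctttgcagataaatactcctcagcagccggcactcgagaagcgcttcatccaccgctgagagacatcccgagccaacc
Wif1 (chr10:121033754-121034053, plus strand): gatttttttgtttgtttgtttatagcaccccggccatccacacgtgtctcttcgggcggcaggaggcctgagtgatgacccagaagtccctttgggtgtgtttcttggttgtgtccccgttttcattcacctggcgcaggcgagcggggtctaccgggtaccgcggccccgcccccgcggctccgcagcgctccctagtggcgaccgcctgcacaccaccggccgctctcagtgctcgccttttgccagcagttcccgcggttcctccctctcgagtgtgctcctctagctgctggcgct
Tnfaip3 (chr10:19015361-19015660, minus strand): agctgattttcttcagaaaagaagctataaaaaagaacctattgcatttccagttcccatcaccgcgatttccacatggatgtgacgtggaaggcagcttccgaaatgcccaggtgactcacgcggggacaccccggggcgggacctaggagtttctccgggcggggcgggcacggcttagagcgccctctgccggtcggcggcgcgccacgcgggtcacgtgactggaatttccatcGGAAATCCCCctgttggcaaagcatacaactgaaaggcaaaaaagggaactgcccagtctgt
Ltb (chr17:35194257-35194556, plus strand): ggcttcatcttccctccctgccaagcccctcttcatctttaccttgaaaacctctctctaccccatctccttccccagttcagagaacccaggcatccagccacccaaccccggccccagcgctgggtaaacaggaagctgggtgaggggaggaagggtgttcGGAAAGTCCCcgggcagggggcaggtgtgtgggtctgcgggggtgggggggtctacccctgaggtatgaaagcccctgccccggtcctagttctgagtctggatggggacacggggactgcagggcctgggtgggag
Ifit1 (chr19:34640639-34640938, plus strand): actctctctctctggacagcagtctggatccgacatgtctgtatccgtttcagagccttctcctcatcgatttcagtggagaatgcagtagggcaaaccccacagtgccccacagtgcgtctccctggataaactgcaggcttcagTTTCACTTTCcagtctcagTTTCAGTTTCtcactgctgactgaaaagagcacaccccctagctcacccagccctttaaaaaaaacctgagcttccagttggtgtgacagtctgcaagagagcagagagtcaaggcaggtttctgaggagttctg

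In the Ubd window the κB-type match GGGGATTTCC lay at −15 to −6 from the start. The Cxcl10 window held the short κB form GGGACTTCC at −103 to −95 and a GAAANNGAAA match at −213 to −204. The first of 2 Tnfaip3 windows, shown here, held a κB-type match at −12 to −3 on the other strand and the second held 0 matches, and the Ltb window held 1 at −87 to −78, also on the other strand. The Ifit1 window held 2 matches to GAAANNGAAA, at −104 to −95 and −85 to −76, and no κB-type match. No match to these letters was found in the Wif1 window. Of the called genes not shown, the Traf2 window held a κB-type match at 32 to 41 bases after the start, 1 of 2 Ctbp2 windows held a GAAANNGAAA match at −96 to −87, and the Casp8 window held 0 matches. A match is a description of the sequence and was not measured as bound by any factor.

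The targeted genes were looked at first. Casp8, at 9.80, 9.76, 9.84 and 10.07 in the 4 WT arrays, read 8.64, 9.11, 9.04 and 8.74 in IKKβ triple KO. The groups did not overlap, as in 3.92% of all genes, and Casp8 fell by 0.99 on the log2 scale (SE 0.11, adjusted p = 0.00289). Ikbkb, which encodes IKKβ, read 7.70, 7.62, 7.73 and 7.50 in WT and 7.30, 7.26, 7.12 and 7.07 in IKKβ triple KO. All 4 knockout arrays were below all 4 WT arrays, but the difference of −0.45 ± 0.09 did not pass (adjusted p = 0.175). Against TRAF2/Casp8 KO, which keeps Ikkβ, Ikbkb was lower by 1.62-fold (adjusted p = 0.00137).

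Traf2 went against the label. It read 6.21, 6.23, 6.40 and 6.28 in WT and 6.87, 6.92, 6.87 and 6.88 in the arrays labelled as Traf2-deleted. The knockout arrays lay closely together and all above WT, and the signal rose 1.52-fold (0.61 ± 0.09, adjusted p = 0.0426). This call was lost when any of the 8 arrays was left out (adjusted p 0.0679 to 0.168). In TRAF2/Casp8 KO the signal was 7.30 ± 0.16 (SD, n = 4). Whether the probes of Casp8, Traf2 or Ikbkb lie in the deleted exons is not given in the sources used here, so none of these signals by itself checks the deletion. Ripk3, which no allele of this genotype targets, read 5.93 ± 0.34 in WT and 6.03 ± 0.28 in IKKβ triple KO.

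In all, 7 of 35556 probe sets passed (0.0197%), and each stood for a gene: 5 higher (0.0266% of 18820 genes) and 2 lower (0.0106%). At an unadjusted p under 0.05, 2230 probe sets (6.27%) differed, 936 higher and 1294 lower. The median difference over all genes was −0.01, and the 5th and 95th percentiles were −0.25 and 0.25. In the fit without WT replicate 1, 8750 of the 18820 genes lay above 0, and the median was again −0.01. The later counts of list members above 0 are from the fit with all arrays unless named otherwise. For that fit the count over all genes is not given. Members of a list are read in the same 8 arrays, so counts of members above 0 are not independent. A gene's difference had a median SE of 0.12 and a median 95% interval of 0.25 to either side. In the same model, 623 genes passed between TRAF2/Casp8 KO and the same WT arrays (3.31%). WT and IKKβ triple KO were in column 5 and TRAF2/Casp8 KO in column 7 by the array names. Column and genotype cannot be told apart in this count or in later comparisons of TRAF2/Casp8 KO with WT. The count of 7 probe sets moved with single arrays. It was 11 without WT replicate 1, 13 without WT replicate 4, and 4 without WT replicate 3 or IKKβ triple KO replicate 2. When only the 8 arrays of the comparison entered the model, 1 gene passed, Ubd.

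**Figure D1:**
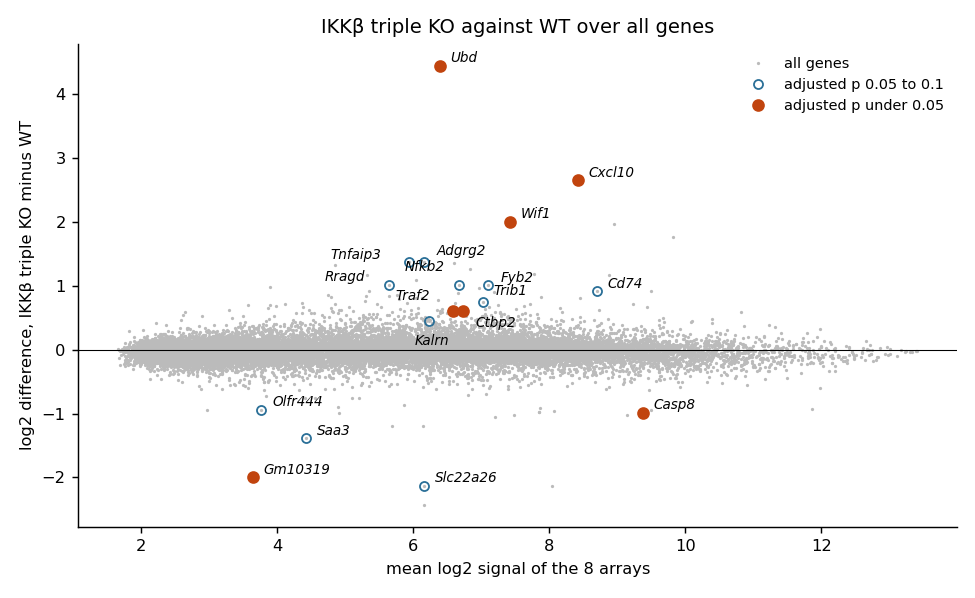
Each point is a gene: the horizontal axis is the mean log2 signal of the 8 arrays and the vertical axis the log2 difference of IKKβ triple KO from WT. Filled circles are the 7 genes with an adjusted p under 0.05 and open circles the 11 genes from 0.05 to 0.1; Ubd stands furthest from 0, and the other genes gather along 0.

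Ubd encodes FAT10, a ubiquitin-like protein that TNF and interferon-γ induce and that marks proteins for the proteasome. It read 4.49, 4.09, 4.06 and 4.02 in WT and 9.39, 8.54, 7.84 and 8.69 in IKKβ triple KO. Every knockout array was far above every WT array, and the difference was 4.45 ± 0.23 (95% interval 3.96 to 4.94, adjusted p = 2.17e-07). It passed under every alternative, with adjusted p values of up to 0.00527. In TRAF2/Casp8 KO, Ubd read 10.31 ± 0.06 (SD, n = 4), and IKKβ triple KO lay below that by 3.25-fold (adjusted p = 0.00181), with no overlap.

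Cxcl10, a chemokine gene that interferons and TNF induce and whose product draws T cells, read 7.58, 6.92, 6.69 and 7.15 in WT. In IKKβ triple KO it read 10.50, 10.19, 9.0 and 9.28. The groups did not overlap, although replicates 1 and 2 of the knockout lay well above replicates 3 and 4, and Cxcl10 rose by 2.66 ± 0.34 (adjusted p = 0.00951). The call was lost without IKKβ triple KO replicate 2 or WT replicate 2 or 3 (adjusted p up to 0.0639). TRAF2/Casp8 KO read 10.11 ± 0.38 (SD, n = 4). The direct difference of −0.36 had a 95% interval of −1.09 to 0.37 (adjusted p = 0.85), so a difference of up to 1.09 on the log2 scale is within the error.

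Wif1 encodes a secreted protein that binds Wnt ligands and blocks their signal. It read 6.12, 6.04, 6.67 and 6.87 in WT and 8.76, 8.53, 8.35 and 8.07 in IKKβ triple KO. All knockout arrays were above all WT arrays, and Wif1 rose by 2.00 ± 0.21 (adjusted p = 0.00176). It stayed below the 10.19 ± 0.34 (SD, n = 4) of TRAF2/Casp8 KO by 3.38-fold (adjusted p = 0.000869). Wif1 was the only called gene among 25 measured Wnt pathway and pericentral genes (0.0266% of all genes rose). The median difference of that list from WT was −0.00.

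Ctbp2, which encodes a transcriptional corepressor, and the predicted gene Gm10319 complete the called genes. Ctbp2 read 6.67, 6.35, 6.41 and 6.30 in WT and 7.03, 7.05, 6.97 and 7.12 in IKKβ triple KO, and rose 1.52-fold (0.61 ± 0.09, adjusted p = 0.0293). Its call was lost without WT replicate 2, 3 or 4 or any 1 of the IKKβ triple KO arrays (adjusted p up to 0.167), and after centring each array on its median (0.0506) or quantile normalisation (0.0645). Gm10319, which the naming rule leaves out and which was chosen after its values were seen, fell from 5.39, 4.64, 4.50 and 4.02 in WT to 2.46, 2.94, 2.54 and 2.63. That is a difference of −2.0 ± 0.25 (adjusted p = 0.00951), and its groups did not overlap. Gm10319, Ubd, Wif1 and Casp8 passed with each of the 8 arrays left out in turn. The plot of the called genes shows all 4 genotypes.

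**Figure D2:**
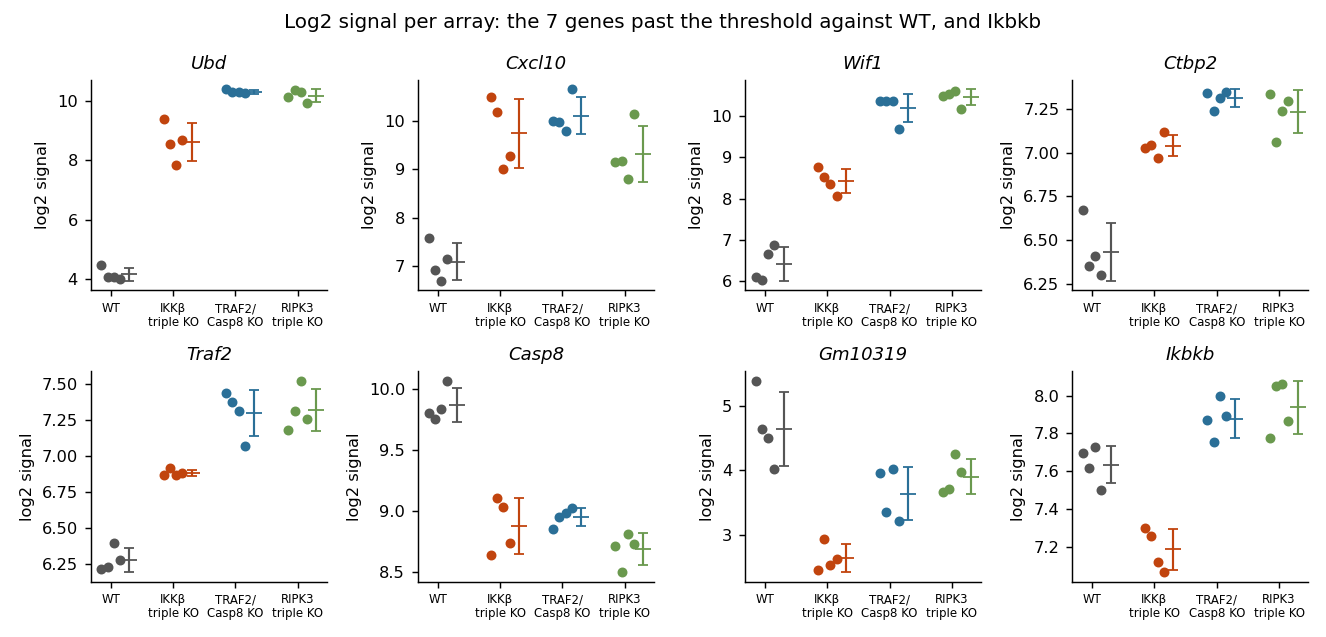
Log2 signal of the 7 genes past the threshold and of Ikbkb in each array of WT, IKKβ triple KO, TRAF2/Casp8 KO and RIPK3 triple KO; points are arrays, bars are the mean and SD of 4. For Ubd, Wif1 and Traf2, the IKKβ triple KO arrays lie above WT and below the other knockouts, and for Ikbkb they are the lowest of all arrays.

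The signal transduction genes of the TNF and NF-κB pathways held 1 called gene. Of 34 measured components of the pathway, Traf2 rose (0.0266% of all genes rose), 0 fell and 33 did not pass. Traf2 is itself targeted in this genotype, and its signal does not check the deletion. The median difference was 0.20 with 26 above 0, against a median of −0.01 over all genes. The list means overlapped, at 7.0 in WT replicate 1 and 6.95 in IKKβ triple KO replicate 3. The components below 0 by most were Ikbkb itself and Traf6. Tnf, the TNF receptor gene Tnfrsf1a, Rela and Ikbkg, which encodes NEMO, differed from WT by 0.10, −0.03, 0.12 and −0.03. Among the same 34 genes, 10 rose between TRAF2/Casp8 KO and the shared WT arrays (2.17% of all genes did), with a median of 0.28. In the direct contrast 0 components were higher and 5 lower in IKKβ triple KO, where 0.903% of all genes were lower. Ikbkb, which is targeted in IKKβ triple KO, was among the 5. Traf2, a member of the list, is targeted in TRAF2/Casp8 KO as well.

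Among inhibitors that NF-κB itself induces, the difference was largest for Tnfaip3. Tnfaip3 encodes A20, which removes ubiquitin chains from the receptor complex. It read 5.93, 5.20, 4.95 and 4.96 in WT and 6.83, 6.55, 6.30 and 6.83 in IKKβ triple KO, without overlap. The difference of 1.37 ± 0.22 had an adjusted p of 0.0546. Without WT replicate 1, the WT array with the highest Tnfaip3, it was 0.00599, and without another array up to 0.191. The direct contrast gave −0.39 (95% interval −0.85 to 0.07, adjusted p = 0.65).

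Nfkbia encodes IκBα, the inhibitor that IKKβ marks for breakdown. It read 8.82, 8.06, 8.16 and 8.15 in WT and 10.01, 9.84, 8.73 and 9.29 in IKKβ triple KO. The lowest knockout array lay below WT replicate 1, and the difference was 1.17 ± 0.28 (adjusted p = 0.354). TRAF2/Casp8 KO read 9.46 ± 0.45 (SD, n = 4), and the direct difference was 0.01 (95% interval −0.59 to 0.61). Nfkbie, which encodes IκBε, read 6.12, 5.32, 5.39 and 5.10 in WT and 6.29, 6.56, 5.75 and 5.90 in IKKβ triple KO. Here the groups overlapped (0.64 ± 0.22, adjusted p = 0.672), and IKKβ triple KO lay 3.59-fold below the 7.97 ± 0.22 (SD, n = 4) of TRAF2/Casp8 KO (adjusted p = 0.000841). Nfkbia, Nfkbie and the other genes of the NF-κB lists without a call were in part chosen after their values were seen.

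In the non-canonical pathway, p100 and RelB are the NF-κB subunits and NIK the kinase. Nfkb2, the gene of p100, read 6.75, 5.92, 6.07 and 5.94 in WT and 7.38, 7.43, 6.90 and 7.03 in IKKβ triple KO. These did not overlap. The difference of 1.01 ± 0.18 had an adjusted p of 0.0956 (0.00605 without WT replicate 1, up to 0.312 without another array). TRAF2/Casp8 KO read 8.21 ± 0.20 (SD, n = 4), above IKKβ triple KO by 2.05-fold (adjusted p = 0.0126). That call was lost when replicate 3 or 4 of IKKβ triple KO, or 1 or 4 of TRAF2/Casp8 KO, was left out (adjusted p up to 0.0552). Relb, the partner of processed p100, was 5.34 ± 0.46 in WT and 6.20 ± 0.71 in IKKβ triple KO, with overlap (adjusted p = 0.705). Map3k14, which encodes NIK, differed from WT by 0.55 ± 0.12 without overlap (adjusted p = 0.26), and its direct difference from TRAF2/Casp8 KO was 0.01 (95% interval −0.25 to 0.27).

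Other genes of that pathway overlapped between IKKβ triple KO and WT. Birc2 and Birc3, the genes of cIAP1 and cIAP2, differed from WT by 0.20 (adjusted p = 0.848) and 0.54 (adjusted p = 0.741). Both were lower than in TRAF2/Casp8 KO, by 1.88-fold (adjusted p = 0.00145) and 2.21-fold (adjusted p = 0.0186). The call of Birc3 was lost without any of the same 4 arrays (adjusted p up to 0.0809) and with only the 2 groups fitted. Ltb, a ligand of the lymphotoxin β receptor, read 6.40, 5.34, 5.86 and 5.14 in WT and 5.82, 6.25, 5.90 and 6.01 in IKKβ triple KO, with overlap. Its difference from WT was 0.31 ± 0.25 (adjusted p = 0.896), and it was lower than in TRAF2/Casp8 KO by 4.4-fold (adjusted p = 0.000869). Of 16 non-canonical genes, the targeted gene Traf2 rose against WT (0.0266% of all genes did) and 0 fell. The list median was 0.26 (0.14 without WT replicate 4). In the direct contrast 5 of the 16 were lower (0.903% of all genes were) and 0 higher, and between TRAF2/Casp8 KO and WT 8 rose (2.17% of all genes did).

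**Figure D3:**
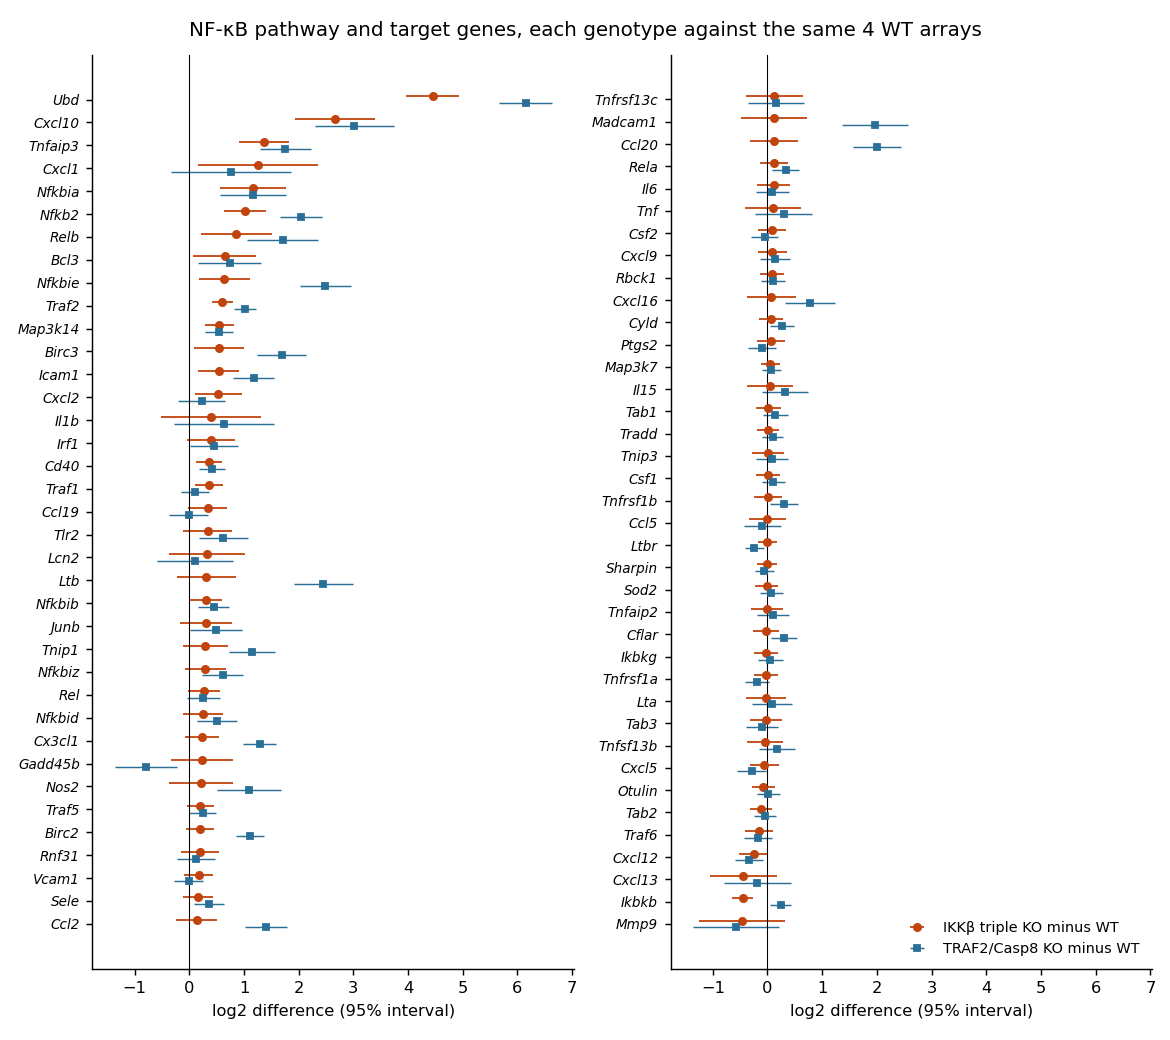
Log2 difference from WT, with 95% intervals, of the measured NF-κB pathway and target genes in IKKβ triple KO (circles) and TRAF2/Casp8 KO (squares), both against the same 4 WT arrays. Circles and squares lie close for Tnfaip3, Nfkbia and Map3k14 and apart for Nfkbie, Ltb, Madcam1 and Ccl20.

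Of 45 measured canonical NF-κB targets, Ubd and Cxcl10 rose (0.0266% of all genes rose), 0 fell and 43 did not pass. Their median was 0.24 and 39 lay above 0. The mean signal of the list was 6.23, 5.75, 5.71 and 5.75 in WT and 6.32, 6.38, 6.21 and 6.28 in IKKβ triple KO, so the highest WT array, replicate 1, was above the lowest knockout array. Without WT replicate 1, 3 members passed and the median was 0.30, and the lowest median with an array left out was 0.20. Between TRAF2/Casp8 KO and the shared WT arrays 14 rose, beside 2.17% of all genes. In the direct contrast 8 were lower in IKKβ triple KO, beside 0.903% of all genes, and 0 higher. The lists were chosen with earlier results of these data known. The NF-κB lists also share members such as Ltb, so their counts are a description and not separate results.

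Those 8 were Ubd, Nfkbie, Birc3, Ltb, Ccl2, Ccl20, Cx3cl1 and Madcam1. Ccl2, which draws monocytes, read 4.6 ± 0.20 in WT, 4.74 ± 0.27 in IKKβ triple KO and 6.0 ± 0.40 in TRAF2/Casp8 KO (SD, n = 4), and was lower in the direct contrast by 2.4-fold (adjusted p = 0.00229). Ccl20, a ligand of CCR6, read 4.27, 4.05, 4.01 and 4.27 in WT and 4.44, 4.21, 4.12 and 4.30 in IKKβ triple KO. The 8 arrays overlapped, while TRAF2/Casp8 KO read 6.15 ± 0.59 (SD, n = 4), higher than IKKβ triple KO by 3.68-fold (adjusted p = 0.000391). Cx3cl1 and the adhesion gene Madcam1 were lower than in TRAF2/Casp8 KO by 2.07-fold (adjusted p = 0.00211) and 3.58-fold (adjusted p = 0.00502). Of 30 chemokines, Cxcl10 rose against WT (0.0266% of all genes did). Cxcl1, a neutrophil attractant, spread over 5.17 to 8.01 in WT and 6.78 to 8.49 in IKKβ triple KO (1.26 ± 0.51, adjusted p = 0.759).

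In the cell death list, the targeted gene Casp8 fell (0.0106% of all genes did) and the other 24 of 25 measured genes did not pass. The list median was 0.02. Mlkl, the necroptosis effector, differed by 0.38, Fadd by −0.02 and Cflar, an inhibitor of caspase-8, by −0.02. Tnfrsf10b, a receptor of the death ligand TRAIL, had the largest positive difference of the list, with 5.18 ± 0.30 in WT and 5.74 ± 0.35 in IKKβ triple KO (SD, n = 4), overlap between the groups and an adjusted p of 0.633. Of 20 p53 targets 0 passed, and the median was 0.05.

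Beside these lists, 11 genes had an adjusted p from 0.05 to 0.1, 8 higher and 3 lower, and they are given as values. Adgrg2, an orphan adhesion receptor gene, read 5.41, 5.07, 5.58 and 5.82 in WT and 7.36, 6.98, 6.23 and 6.80 in IKKβ triple KO. Rragd, a GTPase gene of amino acid sensing by mTORC1, read 5.16, 5.32, 5.06 and 5.03 in WT and 6.07, 6.60, 5.95 and 6.0 in IKKβ triple KO. Neither overlapped, with differences of 1.37 ± 0.21 (adjusted p = 0.053) and 1.01 ± 0.17 (adjusted p = 0.0712). The others above WT were Tnfaip3, Nfkb2, Cd74, Trib1 (0.74 ± 0.12), Kalrn (0.45 ± 0.07) and Fyb2 (1.01 ± 0.17). Below WT were the transporter gene Slc22a26 (−2.13 ± 0.35), the serum amyloid gene Saa3 (−1.38 ± 0.23) and the olfactory receptor gene Olfr444 (−0.94 ± 0.16). When 1 probe set stood for each gene before adjustment, 28 genes passed, 20 higher and 8 lower, and these 11 were among them.

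The direct contrast with TRAF2/Casp8 KO shows where the added deletion of Ikbkb went with a difference. Of 18820 genes, 22 were higher in IKKβ triple KO (0.117%) and 170 lower (0.903%). The number of probe sets called, 223, was 115 without TRAF2/Casp8 KO replicate 1, 121 without its replicate 4, 125 without IKKβ triple KO replicate 3 and 142 without its replicate 4. The genotypes were in columns 5 and 7 by the array names, so column and genotype cannot be told apart there. Guca2b, the gene of the intestinal peptide uroguanylin, showed the largest difference. It read 4.57, 4.74, 4.87 and 4.39 in WT and 5.41, 5.58, 4.66 and 4.06 in IKKβ triple KO. These overlapped, and TRAF2/Casp8 KO read 8.61, 8.04, 8.72 and 9.67, higher than IKKβ triple KO by 14.2-fold (adjusted p = 8.12e-05).

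Rragd, Siglecf, Serpina12, Ltb and Tff3 followed, each below the TRAF2/Casp8 KO arrays in every IKKβ triple KO array (7.48% of all genes did not overlap in this contrast). Rragd was lower by 7.05-fold (adjusted p = 2.02e-06) and Siglecf, a sialic-acid-binding lectin gene of eosinophils, by 6.16-fold (adjusted p = 6.19e-06). Serpina12, which encodes vaspin, and the trefoil factor gene Tff3 were lower by 4.42-fold (adjusted p = 0.00024) and 4.05-fold (adjusted p = 0.00112). Serpina12 and Tff3 stayed above WT without overlap, at 4.38 ± 0.44 against 3.40 ± 0.36 and 7.28 ± 0.39 against 5.93 ± 0.28 (SD, n = 4), though with adjusted p values of 0.282 and 0.127. Siglecf read 5.90, 5.67, 5.84 and 6.01 against 5.21, 4.83, 5.47 and 5.25 in WT (adjusted p = 0.52).

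Of the largest differences in the other direction, most were signals that were low in TRAF2/Casp8 KO. Akr1c18, a steroid dehydrogenase gene that inactivates progesterone, read 9.54, 10.02, 10.74 and 10.72 in WT and 9.67, 10.78, 10.65 and 10.29 in IKKβ triple KO. The groups overlapped, while TRAF2/Casp8 KO spread over 6.33, 9.17, 5.81 and 7.35, 9.09-fold below IKKβ triple KO (adjusted p = 0.0116, and 0.0549 without TRAF2/Casp8 KO replicate 1). Il22ra1, a subunit gene of the interleukin-22 receptor, was 6.93 ± 0.34 in WT, 7.00 ± 0.21 in IKKβ triple KO and 5.21 ± 0.27 in TRAF2/Casp8 KO (SD, n = 4), a direct difference of 3.45-fold (adjusted p = 0.00211). Mettl7b, a methyltransferase gene, read 10.25, 10.22, 10.16 and 10.26 in WT, 9.96, 10.03, 9.80 and 9.90 in IKKβ triple KO and 8.55, 8.46, 8.84 and 8.26 in TRAF2/Casp8 KO. All 3 groups were separate, and the direct difference was 2.63-fold (adjusted p = 2.12e-05) beside −0.30 ± 0.11 against WT (adjusted p = 0.721). Gabbr2, a subunit gene of the GABA-B receptor, and Prg4, which encodes lubricin, were higher than in TRAF2/Casp8 KO by 2.46-fold (adjusted p = 0.00911) and 2.3-fold (adjusted p = 0.0472). The call of Prg4 was lost without any of the 8 arrays of that contrast other than IKKβ triple KO replicate 1 (adjusted p up to 0.151).

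**Figure D4:**
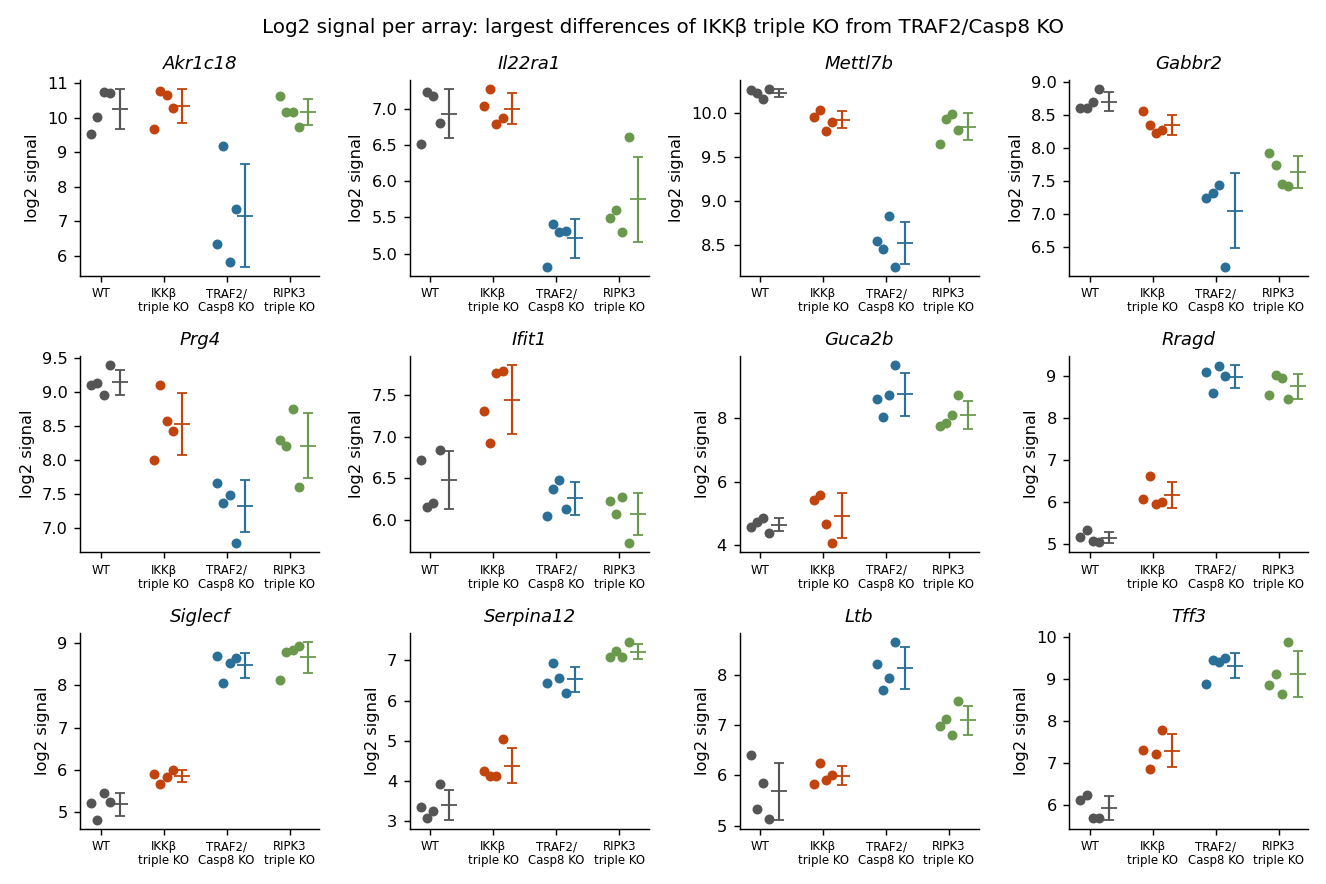
Log2 signal per array, with mean and SD of 4, of the 6 largest rises and 6 largest falls of IKKβ triple KO from TRAF2/Casp8 KO, shown in all 4 genotypes. Akr1c18, Il22ra1, Guca2b and Ltb overlap with WT in IKKβ triple KO, Rragd, Siglecf, Serpina12 and Tff3 lie between, and Ifit1 is above the other 3 genotypes.

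Among genes with a log2 difference over 2 between TRAF2/Casp8 KO and WT, the 6 nearest to WT in IKKβ triple KO were Akr1c18, Guca2b, Ltb, Scube3, Nfkbie and Siglecf. This rule fixes that they differ from TRAF2/Casp8 KO, so the values are a description. Their differences from WT were 0.10, 0.29, 0.31, 0.32, 0.64 and 0.66, and the intervals of Nfkbie (0.18 to 1.11) and Siglecf (0.27 to 1.06) lay above 0. Among all genes with such a difference in TRAF2/Casp8 KO, Ubd (4.45), Cxcl10 (2.66) and Wif1 (2.00) passed against WT.

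Interferon-stimulated genes are induced through STAT and IRF factors, and some of them rose from TRAF2/Casp8 KO to IKKβ triple KO. Ifit1, an antiviral gene that binds foreign RNA caps, read 6.71, 6.16, 6.21 and 6.84 in WT, 7.31, 6.92, 7.75 and 7.79 in IKKβ triple KO and 6.06, 6.38, 6.48 and 6.13 in TRAF2/Casp8 KO. IKKβ triple KO was above both other groups without overlap, by 2.27-fold over TRAF2/Casp8 KO (adjusted p = 0.0128) and by 1.95-fold over WT (adjusted p = 0.215). Leaving out replicate 3 or 4 of IKKβ triple KO, or replicate 1 or 4 of the comparison group, ended the direct call of Ifit1, with adjusted p values of up to 0.06. Usp18, which removes ISG15 from proteins and dampens the interferon receptor, read 7.65, 7.47, 7.39 and 7.74 in WT and 7.76, 7.92, 8.11 and 7.96 in IKKβ triple KO. Usp18 was higher than in TRAF2/Casp8 KO by 1.73-fold (adjusted p = 0.00769), and differed from WT by 0.38 ± 0.13 (adjusted p = 0.672).

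Of 35 interferon-stimulated genes, 0 passed against WT, with a median of 0.32 and 32 above 0. The median was 0.18 without WT replicate 3, and the mean signal of the list overlapped, at 7.37, 6.90, 6.83 and 7.36 in WT and 7.23, 7.28, 7.68 and 7.53 in IKKβ triple KO. Irf7, a transcription factor gene of the interferon response, was 7.36 ± 0.47 in WT and 8.07 ± 0.33 in IKKβ triple KO (SD, n = 4; adjusted p = 0.564). Between TRAF2/Casp8 KO and WT the list median was −0.10. In the direct contrast it was 0.37, with 2 of 35 members higher, Ifit1 and Usp18 (0.117% of all genes were higher), and 0 lower.

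Of 16 MHC class I and II presentation genes, 0 passed against WT, 15 lay above 0 and the median was 0.24. Cd74, whose product escorts MHC class II molecules, read 8.62, 7.85, 8.39 and 8.11 in WT and 9.08, 9.52, 8.98 and 9.04 in IKKβ triple KO. The groups did not overlap. The difference of 0.92 ± 0.16 had an adjusted p of 0.0864 (0.0377 without WT replicate 1, up to 0.245 without another array). It was 1.91-fold below TRAF2/Casp8 KO (adjusted p = 0.0116), a call that ended (adjusted p up to 0.0531) when replicate 3 of the former or replicate 4 of the latter was left out. H2-K1, a class I gene, was 9.50 ± 0.16 in WT and 9.85 ± 0.13 in IKKβ triple KO (SD, n = 4; adjusted p = 0.459). Of 22 T and NK cell markers 0 passed, with a median of 0.22 (0.11 without WT replicate 4). Of 15 B cell markers 0 passed, and their median of 0.10 was 0.29 without WT replicate 1 and −0.11 without WT replicate 4. The part of these cells in the MHC values was not tested.

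Genes of proliferation and early response were above 0 in most members without a call. Of 28 cell cycle genes 0 passed, 27 lay above 0 and the median was 0.35 (−0.01 over all genes). The mean signal of the list was 7.66, 7.88, 7.54 and 7.96 in WT and 7.44, 8.21, 8.38 and 8.31 in IKKβ triple KO. Replicate 1 of IKKβ triple KO was thus the lowest of the 8 arrays and the other 3 knockout arrays the highest. Without replicate 1 the median was 0.57, and the lowest median with an array left out was 0.22. The mitotic kinase genes Aurka and Aurkb differed by 0.56 ± 0.18 and 0.49 ± 0.21 (adjusted p = 0.634 and 0.77). Among 23 AP-1 and immediate early genes there was no call, 20 lay above 0 and the median was 0.39, the highest of the 38 lists. Myc, a growth-promoting transcription factor gene, read 6.54, 6.19, 6.14 and 6.10 in WT and 6.64, 7.14, 7.00 and 7.14 in IKKβ triple KO, without overlap (0.73 ± 0.18, adjusted p = 0.383). Maff overlapped between the groups (0.68 ± 0.18, adjusted p = 0.507).

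Hepatocyte function genes held no call against WT in any list, where 0.0266% of all genes rose and 0.0106% fell. Of 27 hepatocyte secreted and identity genes 0 passed, with a median of −0.05 and differences from −0.46 to 0.25. Gnmt, which consumes S-adenosylmethionine, was 9.84 ± 0.26 in WT and 9.39 ± 0.35 in IKKβ triple KO (SD, n = 4; adjusted p = 0.759). Of 33 cytochrome P450 genes 0 passed and 26 lay below 0, with the lowest median of all lists, −0.18. Cyp2b10, a target of the xenobiotic receptor CAR, read 6.52, 6.20, 6.42 and 6.02 in WT and 5.68, 4.82, 4.84 and 5.02 in IKKβ triple KO. These did not overlap. The difference was −1.20 ± 0.22 (adjusted p = 0.103, 0.0352 without IKKβ triple KO replicate 1 and up to 0.319 without another array). Of 32 phase II and transport genes 0 passed (median −0.09). Slc22a26 read 8.17, 7.00, 6.64 and 7.07 in WT and 5.74, 5.32, 4.14 and 5.17 in IKKβ triple KO, and the groups did not overlap (adjusted p = 0.0632).

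Amino acid and lipid genes also held no call (0.0266% of all genes rose and 0.0106% fell). The 30 genes of the urea cycle and amino acid metabolism had a median of −0.17. Hpd, of tyrosine breakdown, differed by −0.45 ± 0.15 (adjusted p = 0.658). Of 26 fatty acid oxidation genes 0 passed (median −0.11), and Acadm, a medium-chain dehydrogenase gene, read 11.03, 11.31, 11.34 and 11.24 in WT and 11.02, 10.90, 10.80 and 10.85 in IKKβ triple KO (adjusted p = 0.628). Of 26 sterol and fatty acid synthesis genes 0 passed (median 0.11), with Elovl6, a fatty acid elongase gene, at 0.83 ± 0.27 and Fasn at 0.46 ± 0.23. Of 25 bile acid genes 0 passed (median −0.08). Baat, which conjugates bile acids, read 6.65, 6.17, 6.01 and 6.03 in WT and 6.80, 7.57, 6.80 and 7.25 in IKKβ triple KO. It did not overlap with WT (adjusted p = 0.158) and was 2.69-fold lower than in TRAF2/Casp8 KO (adjusted p = 0.000913).

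Of 42 acute phase, complement and coagulation genes 0 passed, 9 lay above 0 and the median was −0.10. Saa3, an inducible serum amyloid gene, read 5.83, 4.48, 5.28 and 4.86 in WT and 3.74, 3.56, 3.74 and 3.87 in IKKβ triple KO. The knockout arrays were all below WT (−1.38 ± 0.23, adjusted p = 0.0647, 0.0222 without WT replicate 2 and up to 0.238 without another array). The protease inhibitor gene Mug2 spread over 5.93 to 8.74 in WT and lay at 4.44 to 5.22 in IKKβ triple KO. The difference was −2.43 ± 0.48 (adjusted p = 0.168, 0.0331 without WT replicate 4 and up to 0.408 without another array). Hamp, the gene of the iron hormone hepcidin, read 9.26, 8.29, 9.06 and 9.12 in WT and 10.42, 11.66, 10.49 and 10.25 in IKKβ triple KO. Its groups did not overlap either, though the difference of 1.77 ± 0.44 had an adjusted p of 0.399. The remaining liver lists also held 0 called genes. The median was −0.13 over 22 carboxylesterase, Akr1c and major urinary protein genes, −0.08 over 22 growth hormone and IGF genes, −0.01 over 23 metallothionein, zinc and iron genes and −0.08 over 16 circadian clock genes. Ces3a, a carboxylesterase gene, differed by 1.97 ± 0.50 with overlap (adjusted p = 0.411).

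Epithelial, matrix and stress lists held 0 called genes against WT as well (0.0266% of all genes rose and 0.0106% fell). The median was 0.07 over 18 biliary and progenitor genes, 0.13 over 20 simple-epithelial and intestinal-type genes and 0.05 over 21 fetal liver and liver cancer genes. Cldn4 and Cldn7, tight junction genes of bile duct cells, differed from WT by 0.43 and 0.23 and were lower than in TRAF2/Casp8 KO by 2.51-fold (adjusted p = 0.0132) and 2.18-fold (adjusted p = 0.00211). The call of Cldn4 was lost when replicate 3 of IKKβ triple KO, or 1 or 4 of TRAF2/Casp8 KO, was left out (adjusted p up to 0.0541), and with only the 2 groups fitted. Sprr1a, a gene of stressed epithelia, read 4.14, 4.09, 4.35 and 4.16 in WT and 4.58, 6.58, 5.92 and 4.95 in IKKβ triple KO, without overlap (adjusted p = 0.533). The median was −0.03 over 33 stellate cell and matrix genes, 0.07 over 18 Hippo pathway and YAP targets, 0.06 over 21 NRF2 and oxidative stress genes and 0.11 over 21 unfolded protein and integrated stress response genes. Ankrd1, a YAP target, differed by 0.71 ± 0.22 (adjusted p = 0.63) and Atf3, a stress-induced transcription factor gene, by 1.09 ± 0.34 (adjusted p = 0.619).

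**Figure D5:**
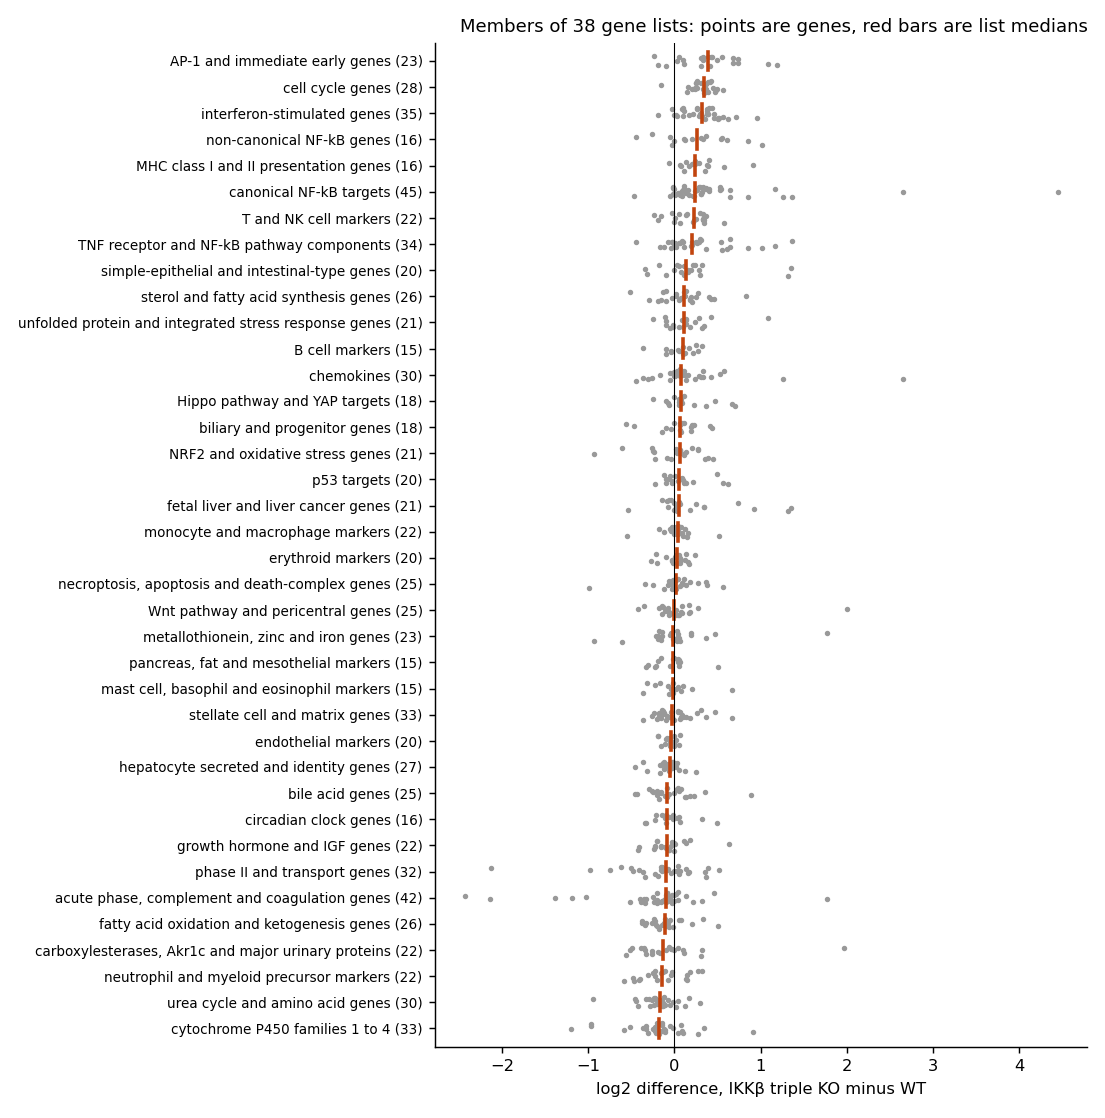
Log2 difference of IKKβ triple KO from WT for the measured members of 38 gene lists; points are genes, bars are list medians, and the number of measured members is in parentheses. Medians run from −0.18 for cytochrome P450 genes to 0.39 for AP-1 and immediate early genes.

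Of the 38 lists, 32 held 0 called genes against WT and 6 held at least 1. The called members were Ubd, Cxcl10, Wif1, Traf2 and Casp8, and Cxcl10 and Traf2 each stood in more than 1 list. The pathway component, non-canonical and cell death lists held only Traf2 or Casp8, which the genotype targets. Over all genes 0.0266% rose and 0.0106% fell. The blood cell markers varied between animals of each group. The mean signal of 22 neutrophil and myeloid precursor markers was 8.76, 7.52, 7.16 and 7.31 in WT and 7.10, 7.29, 7.78 and 8.05 in IKKβ triple KO, and the median difference of −0.14 was 0.18 without WT replicate 1. That of 22 monocyte and macrophage markers was 8.62, 7.85, 7.88 and 7.90 in WT and 8.04, 8.04, 8.22 and 8.05 in IKKβ triple KO, and the median difference of 0.04 was 0.23 without WT replicate 1. That of 20 erythroid markers was 6.96, 7.81, 6.91 and 6.88 in WT and 6.78, 6.31, 7.65 and 7.89 in IKKβ triple KO. In all 3 lists the groups overlapped, and 0 members passed. Their part in the differences of single genes was not tested. The median was −0.04 over 20 endothelial markers, −0.02 over 15 mast cell, basophil and eosinophil markers and −0.01 over 15 pancreas, fat and mesothelial markers, again with 0 called.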

How the data were processed

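Whole-liver RNA of 16 mice was measured on 1-colour arrays, 1 animal per array. The log2 signals deposited by the authors cover 35556 probe sets and were made with RMA, per the submitters' processing notes. Which software version and probe set definition served is not given in the sources used here. Values lay between 0.89 and 13.65, from which base 2 was taken. By the platform annotation, 21218 probe sets had 1 gene symbol, 1881 several and 12457 none. A gene was read from its probe set with the highest mean, which gave 18820 genes.

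Each probe set was fitted in 1 linear model of the 4 genotypes over all 16 arrays with limma 3.58.1 (lmFit and eBayes, R 4.3.3). Tests were two-sided, with Benjamini-Hochberg adjustment over all probe sets and a threshold of 0.05. SDs are over the 4 arrays of a group, SEs and intervals from the model. The number of arrays limits the precision. The fitting code was tested on simulated data.

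The groups, genes and 38 lists (931 genes written, 832 measured) were chosen with earlier results of these data known. Named genes were the targeted genes and up to 15 rises and 15 falls past the threshold without overlap, leaving out predicted, small RNA, antigen receptor, olfactory and vomeronasal genes. To these were added up to 4 called members per list or else the 2 with the smallest adjusted p, the 6 largest rises and falls of the direct contrast, and the 6 genes nearest to WT. Alternatives covered normalisation, array weights, variance trend, dim probe sets, 1 probe set per gene, the arrays fitted, a minimum fold of 2 (treat), blocks, and leaving out each array. Promoters were searched with Python 3.11.15, and figures drawn with matplotlib 3.10.9.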

Additional observations from a re-analysis of the deposited data

Results flagged for a closer look

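Of 210 groups of 4 arrays examined among the genes named, 12 (5.71%) had an array that lay far from the other 3 by Dixon's gap test, and chance gives about 1 in 20. WT replicate 1 was the highest WT array for 4 genes: Ubd at 4.49 (next 4.09), Nfkbia at 8.82 (next 8.16), Map3k14 at 5.31 (next 4.92) and Cd163, a macrophage scavenger receptor gene, at 6.18 (next 5.34). IKKβ triple KO replicate 1 was the lowest of its group for the mitotic kinase genes Aurka, at 6.72 (next 7.48), and Aurkb, at 7.46 (next 8.43), and the highest for Cyp4a31, at 10.28 (next 9.45). In IKKβ triple KO replicate 2, Ces3a was low at 8.50 (next 10.28), as was Nr5a2, a nuclear receptor gene, at 8.70 (next 8.90). In IKKβ triple KO replicate 4, Serpina12 was high at 5.04 (next 4.24). Among WT arrays, Cyp4a31 was low in replicate 4 at 9.94 (next 10.28), and H2-Q6 was low in replicate 3 at 7.70 (next 8.11).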

How the results depend on the processing

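The count of 7 probe sets against WT was 28 with 1 probe set per gene, 20 with array weights, 13 without the dimmest of 3 parts of the probe sets, and 1 with only the 2 groups fitted or with treat. The 5 rises became 20, 14, 9, 1 and 1, with 3 under the replicate block or at an adjusted p of 0.01, and the 2 falls became 8, 6, 4, 0 and 0. With an array left out, the ranges were 4 to 13 probe sets, 2 to 9 rises and 2 to 4 falls. For the 223 probe sets against TRAF2/Casp8 KO the counts were 340 with 1 probe set per gene, 509 with array weights, 109 with only the 2 groups, 3 with treat and 95 at 0.01, and 115 to 312 with an array left out.

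Traf2 missed the threshold at a difference of 0.61 with only the 2 groups, under the replicate block and with treat, and at 0.58 to 0.64 with an array left out. Casp8 missed it at −0.99 with only the 2 groups and with treat. The replicate block also lost Ctbp2 (adjusted p = 0.0628 against 0.0293). Deviations of same-numbered IKKβ triple KO and WT arrays had correlations of −0.0924 to −0.00247, beside −0.206 to 0.23 for the other pairs. The labels do not say that equal numbers pair animals, and 4 such pairs are too few to decide it. With an array left out, signs turned for differences near 0 from WT: Ripk3 (−0.033 to 0.25), Akr1c18 (−0.14 to 0.32), Il22ra1 (−0.071 to 0.17, and −0.056 with array weights) and Madcam1 (−0.018 to 0.22). Casp8 did so against TRAF2/Casp8 KO (−0.15 to 0.0078). The cause was not tested. Of 1888 values for 105 genes against WT, 1798 kept their direction and side of the threshold, as did 572 of 648 for 36 genes against TRAF2/Casp8 KO. Most of the 105 had no call to lose, and several alternatives leave the difference itself unchanged, so the total does not measure how stable the calls were. Of 18 alternatives, Ctbp2 lost its call against WT in 12, Traf2 in 11 and Cxcl10 in 5. Casp8, Wif1 and Gm10319 lost it in 2 each and Ubd in 0. Of 684 list medians, 679 moved by less than the spread between arrays, and several alternatives leave the medians unchanged. That spread can exceed the median itself, so a median could change sign within it. The median of neutrophil and myeloid precursor markers ran from −0.31 to 0.18 with an array left out. With 4 arrays a group, the 95% intervals, which are not adjusted for the number of probe sets, had a median half-width of 0.25, and the smallest difference that passed was 0.61.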
